A study of Mus musculus with 4 samples.

Results

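The enzymes of glycolysis were examined in the RNA of whole tibial bone marrow from obese mice that did or did not exercise. The 10 genes Hk2, Gpi1, Pfkl, Aldoa, Tpi1, Gapdh, Pgk1, Pgam1, Pkm and Ldha were taken from the 55291 gene names of the expression tables by name, and each gene's value is the sum over all transcripts that carry its name. All 10 were found in each of the 4 libraries and all 10 passed the filter on low values. None of the 10 enzymes passed the thresholds for a difference between the groups, which called 3.74% of all genes tested. Ldha was the only enzyme with both exercised libraries above both unexercised libraries, a pattern seen in 14.3% of all genes tested.

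Glycolysis splits glucose into pyruvate in the cytosol, and yields ATP and NADH without the need for oxygen. Lactate dehydrogenase then reduces pyruvate to lactate and returns NAD+ to the pathway. Mature neutrophils and red cells, which are abundant in marrow, hold few or no working mitochondria and draw most of their ATP from glycolysis, and the transcription factor HIF-1 is known to raise the RNA of many of these enzymes when oxygen is low.

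All mice were male C57/B6 animals (strain label WT,C57/B6) placed on an HFD (high-fat diet) from the age of 8 weeks. The Ob group (2 libraries) had the diet alone, and the Ob + Exe group (2 libraries) had the diet with moderate-intensity treadmill running for 12 weeks. The marrow of the tibia was collected by centrifugation, so each library held RNA of all marrow cells, and fewer cells of a type and less RNA per cell cannot be told apart. The study describes 2 mice of each group behind these libraries, and p values measure the spread between these few animals.

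The libraries held 44.3 to 53.0 M read equivalents (transcript coverage times length over a read length of 150 bases), and 12072 to 12540 genes reached an FPKM of 1. FPKM scales fragments to the length of the transcript and to the size of the library. It was divided here by a scaling factor of 0.945 to 1.04 per library, and all levels below are scaled FPKM unless raw FPKM is named. The labels also name mesenchymal stem cells as the cell line and fibroblast as the cell type. The summed scaled FPKM of 10 stroma and fibroblast markers was 113 to 171, against 53799 to 81831 for 9 erythroid markers and 28386 to 67471 for 10 markers of maturing neutrophils. Markers of blood cells thus far exceeded those of the labelled cell type.

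The question was whether the RNA of the enzymes differed between exercised and unexercised mice. With limma on log2(scaled FPKM + 0.1), 0 of the 10 had an unadjusted p under 0.05 together with a log2 fold change beyond 1, a rule that called 3.74% of the 18582 genes tested (0.996% as higher in Ob + Exe and 2.74% as lower). At an unadjusted p under 0.05 alone, the count was again 0 of 10, against 5.05% of all genes tested (1.57% higher and 3.48% lower). No gene of the whole table passed 0.05 after Benjamini-Hochberg adjustment in limma, although 938 had an unadjusted p under 0.05, and the adjusted p of the 10 enzymes was 0.960 to 0.994. The median log2 fold change (Ob + Exe minus Ob) of the 10 enzymes was 0.05, with a range of -0.07 to 0.44, and that of all genes tested was -0.02. It became 0.24 without Ob replicate 1 and -0.15 without Ob replicate 2. An exact permutation test of 2 libraries against 2 cannot give a two-sided p below 0.333.

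**Figure D1:**
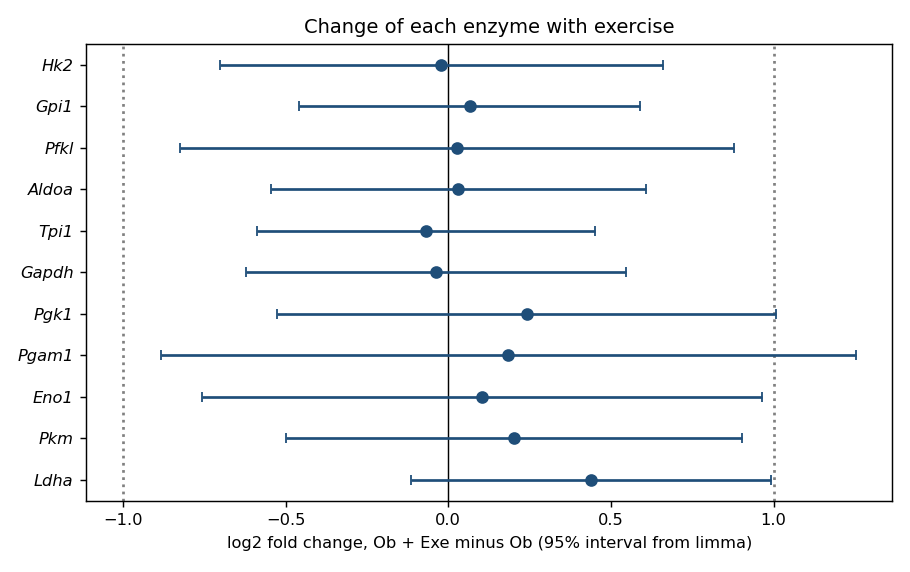
The log2 fold change of each enzyme between Ob + Exe and Ob (horizontal axis, log2 scale), with its 95% interval from limma as a bar; the dotted lines mark a log2 fold change of 1 in either direction. Every interval crosses 0, that of Ldha (-0.11 to 0.99) reaches least far below it, and those of Pgk1 and Pgam1 pass the dotted line.

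The width of the intervals shows what the 4 libraries could resolve. For 8 of the 10 enzymes the 95% interval lay within a log2 fold change of 1 in either direction, so a doubling or a loss to 50% fell outside it. The exceptions were Pgk1, with an interval of -0.53 to 1.01, and Pgam1, with an interval of -0.88 to 1.25.

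The pathway opens with the step that traps glucose in the cell. Hk2 (hexokinase 2, chr6:82725025-82774454 in GRCm38, minus strand) phosphorylates glucose, and is the insulin-regulated hexokinase of muscle and fat. Its level was 6.42 and 5.21 in the Ob pair against 5.82 and 5.58 in the Ob + Exe pair. Both exercised values sat between the unexercised ones, and the log2 fold change was -0.02 (SE 0.28).

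Gpi1 (chr7:34201330-34230336, minus strand) turns glucose 6-phosphate into fructose 6-phosphate. It read 162 and 131 in Ob against 152 and 154 in Ob + Exe (log2 fold change 0.07, SE 0.21). The exercised libraries differed from each other by far less than the unexercised ones, whose SD was 22.2 against 1.48. Its leading transcript held 67.0% to 85.6% of the gene's raw FPKM.

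Pfkl (chr10:77986947-78010083, minus strand) encodes the liver form of phosphofructokinase, the enzyme that commits sugar to glycolysis. Its level was 6.33 and 5.63 in Ob against 7.95 and 4.64 in Ob + Exe. The exercised libraries therefore held both the highest and the lowest value, and the log2 fold change of 0.03 had an SE of 0.35.

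Aldoa (chr7:126795234-126800751, minus strand) encodes aldolase A, which cleaves the doubly phosphorylated sugar into a pair of triose phosphates. Its level was 182 and 133 in Ob against 159 and 159 in Ob + Exe (log2 fold change 0.03, SE 0.23). Its transcripts were divided very differently between libraries although the gene's sum was steady. The leading transcript took 16.1% to 96.7% of the raw FPKM of the gene and led in only 2 of 4 libraries. No isoform of Aldoa is therefore described. The name also covers another gene identifier just upstream, at chr7:126800790-126809108.

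Tpi1 (chr6:124810586-124814296, minus strand) interconverts the triose phosphates so that both can go on through the pathway. It read 66.6 and 53.5 in Ob against 58.4 and 55.5 in Ob + Exe. The exercised values again lay between the unexercised ones, and the log2 fold change was -0.07 (SE 0.21). Its reads could also be shared with Spsb2, a gene that overlaps it, because the library kit did not mark the strand.

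**Figure D2:**
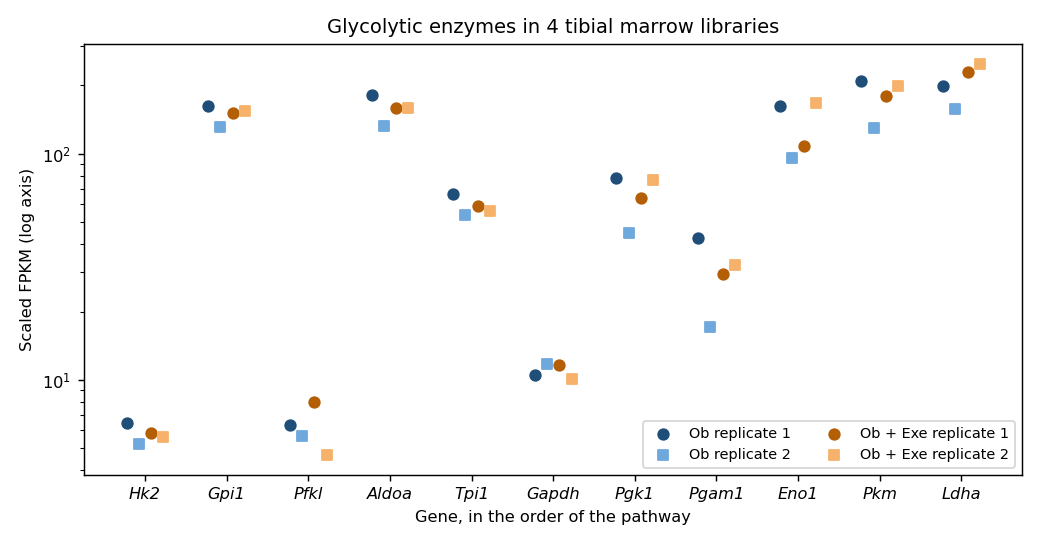
Scaled FPKM (vertical, log axis) of each enzyme in the order of the pathway, with a point for each library, circles for replicate 1 and squares for replicate 2 of Ob (blue) and Ob + Exe (orange). Ob replicate 2 (light blue square) is the lowest point for 8 of the 10 listed enzymes, and both orange points of Ldha lie above both blue points.

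Gapdh (chr6:125161715-125166467, minus strand) oxidizes glyceraldehyde 3-phosphate and makes the NADH of the pathway. It was the steadiest of the 10, at 10.6 and 11.7 in Ob against 11.7 and 10.1 in Ob + Exe, so that the highest library exceeded the lowest by a factor of 1.17. Its log2 fold change was -0.04 (SE 0.24). The level itself was low for an enzyme known as abundant in nearly every cell. Per length, Tpi1 lay 4.55 to 6.31 times above Gapdh and Pgk1 3.81 to 7.62 times above it, although these enzymes catalyse neighbouring steps. Actb, the cytoskeletal actin often used as a reference beside Gapdh, lay 135 to 194 times above it.

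Gapdh has many near-identical copies in the genome. In the GENCODE vM21 annotation, 143 other genes matched its spliced coding transcript at 90% identity or more over at least 50% of its length, and 134 of them are pseudogenes. Matches of at least 150 bases at 97% identity or more, long enough to hold a whole read, covered 88.0% of the transcript. Of the copies, 66 had a value above 0, and their summed raw FPKM was 15.7 and 11.0 in Ob against 15.3 and 13.5 in Ob + Exe, which is of the same order as Gapdh itself. The sums take all transcripts of each matching gene. They include Peli2 and 3000002C10Rik, with a mean raw FPKM of 2.56 and 1.92, and so can hold RNA that is not like Gapdh. In addition, the transcript with the largest share of Gapdh in 3 of 4 libraries was a single-exon model of 3289 bases annotated as a retained intron, with 32.5% to 56.1% of the raw FPKM. Its raw FPKM was 3.53 and 5.10 in Ob against 6.04 and 5.34 in Ob + Exe, whereas that of the main spliced coding transcript was 5.31 and 4.82 against 4.29 and 3.82. The steady sum thus held transcripts whose groups did not overlap, in opposite directions. These transcript values were not tested, and groups did not overlap in 32.6% of all genes tested. The gene also overlaps Iffo1 in the genome. The level of Gapdh is thus uncertain, and how the authors' aligner and StringTie shared its reads among the copies was not tested.

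**Figure D3:**
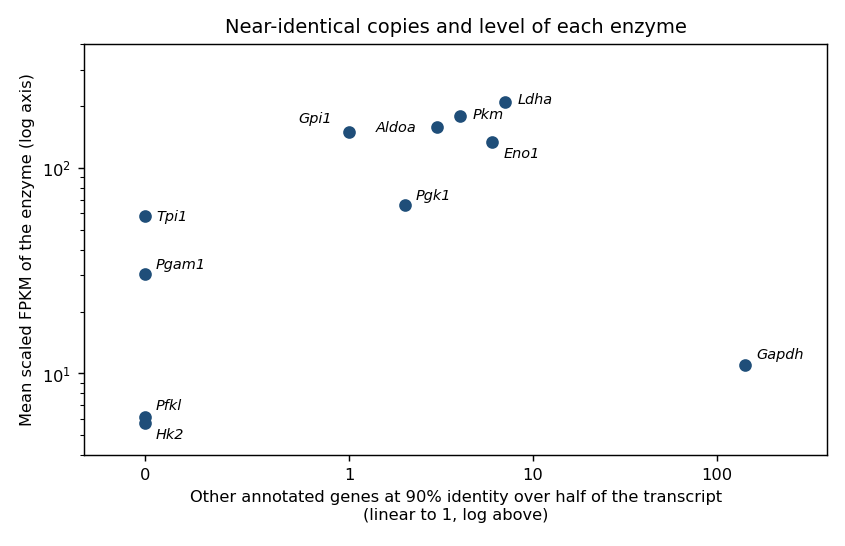
Number of other annotated genes that match each enzyme's transcript at 90% identity over 50% of its length (horizontal, linear up to 1 and log above) against the mean scaled FPKM of the enzyme over the 4 libraries (vertical, log axis); each point is a gene. Gapdh, with 143 copies and a mean of 11.0, stands alone at the right, and the other enzymes have 0 to 7 copies.

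The other enzymes had far fewer copies. Ldha had 7, Pkm 4, Aldoa 3, Pgk1 2 and Gpi1 1, while Hk2, Pfkl, Tpi1 and Pgam1 had 0. Read-length matches, by the measure used for Gapdh, still covered 68.8% of the Pgk1 transcript, 65.5% of Pkm, 43.1% of Pgam1, 36.3% of Gpi1 and 19.3% of Tpi1, with 1 to 3 other genes each, so the reads of these genes can also be ambiguous. They covered 0% of Hk2, Pfkl, Aldoa and Ldha. The copies of Ldha summed to a raw FPKM of 0.963 to 1.82 and those of Pkm to 2.46 to 5.45, which is small beside the levels of these genes.

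Pgk1 and Pgam1 showed the widest spread within a group, as the ratio of the higher to the lower Ob library. Pgk1 (chrX:106187100-106203699, plus strand) encodes phosphoglycerate kinase, which makes the ATP that first repays the pathway. It read 77.8 and 44.7 in Ob against 63.4 and 76.7 in Ob + Exe (log2 fold change 0.24, SE 0.31). Pgam1 (chr19:41911923-41918660, plus strand) encodes phosphoglycerate mutase, which moves the phosphate along the glycerate. It read 42.6 and 17.1 in Ob against 29.3 and 32.2 in Ob + Exe (log2 fold change 0.18, SE 0.43). Ob replicate 1 was the highest and Ob replicate 2 the lowest library for both genes, and for Pgam1 they differed by a factor of 2.49. Without Ob replicate 1, the log2 fold change of Pgam1 was 0.84, with an unadjusted p of 0.0361 and an adjusted p of 0.857 in limma, a fit in which the lone Ob library is assumed to vary like the Ob + Exe pair. Without Ob replicate 2 it was -0.47.

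The promoters of these 2 genes are printed because of this spread. Each is the 250 bases before the annotated start in RefSeq (GRCm38.p6), 5′ to 3′ on the gene's strand, with the HIF core letters ACGTG and GCGTG in capitals on either strand (CACGT and CACGC when the match is on the opposite strand). The Pgk1 window is chrX:106186850-106187099 and the Pgam1 window is chr19:41911621-41911870.
Pgk1 promoter: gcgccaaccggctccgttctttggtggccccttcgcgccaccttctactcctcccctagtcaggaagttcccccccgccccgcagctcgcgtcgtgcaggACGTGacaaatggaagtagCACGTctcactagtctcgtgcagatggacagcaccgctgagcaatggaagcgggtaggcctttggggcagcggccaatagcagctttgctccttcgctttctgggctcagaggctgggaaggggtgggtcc
Pgam1 promoter: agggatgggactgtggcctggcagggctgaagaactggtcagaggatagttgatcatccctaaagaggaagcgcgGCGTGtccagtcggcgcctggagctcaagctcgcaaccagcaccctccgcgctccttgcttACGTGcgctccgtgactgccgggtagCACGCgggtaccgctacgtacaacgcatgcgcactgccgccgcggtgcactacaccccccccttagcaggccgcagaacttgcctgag
The Pgk1 window held 2 matches of ACGTG, and the Pgam1 window 1 of ACGTG and 2 of GCGTG. Of the 32817 promoters of the same length, 16.6% held ACGTG and 28.1% held GCGTG. A match is a run of letters and not a measured site.

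Eno1 (enolase 1), which is not among the 10 but catalyses the step between Pgam1 and Pkm, read 163 and 95.8 in Ob against 108 and 167 in Ob + Exe. The highest and the lowest level of each group were thus nearly the same, with a log2 fold change of 0.10 (SE 0.35). Eno1 had 6 near-identical copies. Read-length matches covered 85.6% of its transcript, near the share of Gapdh, so its reads can also be ambiguous.

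Pkm (chr9:59656368-59679375, plus strand) encodes the pyruvate kinase that makes pyruvate and ATP. It read 209 and 129 in Ob against 179 and 199 in Ob + Exe, and Ob replicate 1 and 2 held the highest and the lowest value. Its log2 fold change was 0.20 (SE 0.28). The gene makes a pair of enzymes from mutually exclusive exons, M1 in muscle, heart and brain and M2 in white blood cells and dividing cells.

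The exons are printed because the encoded enzymes differ only there. Each has 167 bases on the plus strand of chromosome 9 in GRCm38, read from the GENCODE vM21 transcripts, with M1 at chr9:59675029-59675195 and M2 at chr9:59675568-59675734. Capitals mark the 64 positions at which the exons differ, and the identity was 61.7%.
Pkm M1 exon: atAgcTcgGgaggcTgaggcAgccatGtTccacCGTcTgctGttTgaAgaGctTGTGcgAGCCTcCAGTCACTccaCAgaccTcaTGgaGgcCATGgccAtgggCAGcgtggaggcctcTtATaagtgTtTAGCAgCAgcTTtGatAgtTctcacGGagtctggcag
Pkm M2 exon: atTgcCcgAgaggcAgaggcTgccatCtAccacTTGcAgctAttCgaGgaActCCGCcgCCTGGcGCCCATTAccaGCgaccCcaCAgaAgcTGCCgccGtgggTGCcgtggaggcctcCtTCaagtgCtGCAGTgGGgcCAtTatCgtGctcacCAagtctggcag
With these differences spread along the exon, reads over it can be told apart. The values below are those of whole transcripts and not counts of reads over the exon. Pkm also overlaps Gm49759, whose raw FPKM reached 10.4. The M2 transcript had a raw FPKM of 206 and 132 in Ob against 171 and 179 in Ob + Exe. The M1 transcript had 5.49 and 2.20 in Ob against 8.12 and 5.19 in Ob + Exe. The groups overlapped in the raw FPKM of both transcripts. As a share of the raw FPKM of Pkm, M2 held 95.5% and 97.7% in Ob against 94.5% and 95.1% in Ob + Exe, and M1 held 2.55% and 1.63% against 4.50% and 2.75%. The shares did not overlap between the groups, by a margin smaller than the spread within a group, and they were not tested. Of single genes tested, 32.6% did not overlap. Markers of skeletal muscle, a tissue that uses M1, were also higher in Ob + Exe (values beside Ldha), and their part in the M1 share was not tested.

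Ldha (chr7:46841475-46855627, plus strand) encodes the M subunit of lactate dehydrogenase, the form that favours lactate production. It was the most abundant of the 10 enzymes on average. Its level was 199 and 157 in Ob against 230 and 250 in Ob + Exe, so both exercised libraries were above both unexercised ones. The means were 178 ± 29.9 and 240 ± 14.1 (SD, n = 2), a log2 fold change of 0.44 (SE 0.22, 95% interval -0.11 to 0.99). The unadjusted limma p was 0.0991 and the adjusted p was 0.960, so the difference did not pass the threshold. The log2 fold change was 0.27 to 0.61 when each library was left out in turn, which cannot change the direction of groups without overlap. Groups without overlap in this direction were found for 14.3% of all genes tested, so 1 such gene among 10 is near the background.

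The sums of some other marker lists also did not overlap between the groups and are given beside Ldha. Of single genes tested, 32.6% did not overlap. The summed scaled FPKM of 13 skeletal muscle markers was 8.19 to 12.7 in Ob against 16.9 to 18.1 in Ob + Exe. Of these markers, 9 were tested and all 9 had a positive log2 fold change. Acta1 alone passed both thresholds (log2 fold change 1.55, unadjusted limma p 0.0219, adjusted p 0.960), beside 0.996% of all genes tested for calls in its direction. The muscle myosin gene Myh2 was at 0 in every library. The 7 adipocyte markers summed to 64.5 to 65.2 in Ob against 87.5 to 109 in Ob + Exe, with Lep at 0 in every library. This separation came from Fabp4 (59.2 and 57.0 against 103 and 78.1), since Adipoq, Cfd and Cidec overlapped. The 7 B cell markers summed to 195 to 202 in Ob against 123 to 154 in Ob + Exe, 6 endothelial markers to 17.1 to 18.3 and 11.8 to 13.8, and 6 osteoblast markers to 15.1 to 23.2 and 13.7 to 13.8, with no marker of these lists at 0 in every library. The 7 megakaryocyte and platelet markers all had a negative log2 fold change, but their sums overlapped (339 to 470 and 141 to 381). Beside 2.74% of all genes tested, 2 of these 7, 2 of the 7 B cell, 1 of the 6 osteoblast and 0 of the 6 endothelial markers were called lower. The part of these cells in the values of Ldha was not tested.

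The promoter of Ldha is printed as that of the only enzyme whose groups did not overlap, at chr7:46845554-46845803, in the same form as above.
Ldha promoter: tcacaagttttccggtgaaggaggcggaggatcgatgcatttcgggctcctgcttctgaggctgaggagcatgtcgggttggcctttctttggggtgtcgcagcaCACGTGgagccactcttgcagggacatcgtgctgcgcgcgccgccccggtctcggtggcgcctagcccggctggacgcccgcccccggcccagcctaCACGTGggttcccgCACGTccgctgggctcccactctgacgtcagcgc
It held 5 matches of ACGTG over both strands. The letters CACGTG read the same on both strands, occur 2 times and account for 4 of these matches. CACGTG was present in 6.02% of the 32817 promoters. Of the other enzymes, Hk2 held 2 matches of ACGTG and Aldoa held 1, while Gpi1, Pfkl, Tpi1, Gapdh and Pkm held 0. Of GCGTG, Gapdh held 2 matches and Pfkl 1.

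The choice of isozyme decides what each step can do, and most steps were served almost entirely by the listed gene. Aldoa held 98.1% to 99.0% of the scaled FPKM of the aldolases, Ldha 95.0% to 96.2% of the lactate dehydrogenases, Pgam1 90.8% to 92.9% of the mutases and Pkm 89.4% to 95.0% of the pyruvate kinases. The exceptions were the steps at the top. Hk2 held only 5.28% to 6.17% of the hexokinase level, and Hk3, the hexokinase of granulocytes, held 58.4% to 76.3%. Pfkl held 20.6% to 26.5% of the phosphofructokinase level, below both Pfkm and Pfkp. The testis form Pgk2 was at 0 in all 4 libraries.

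**Figure D4:**
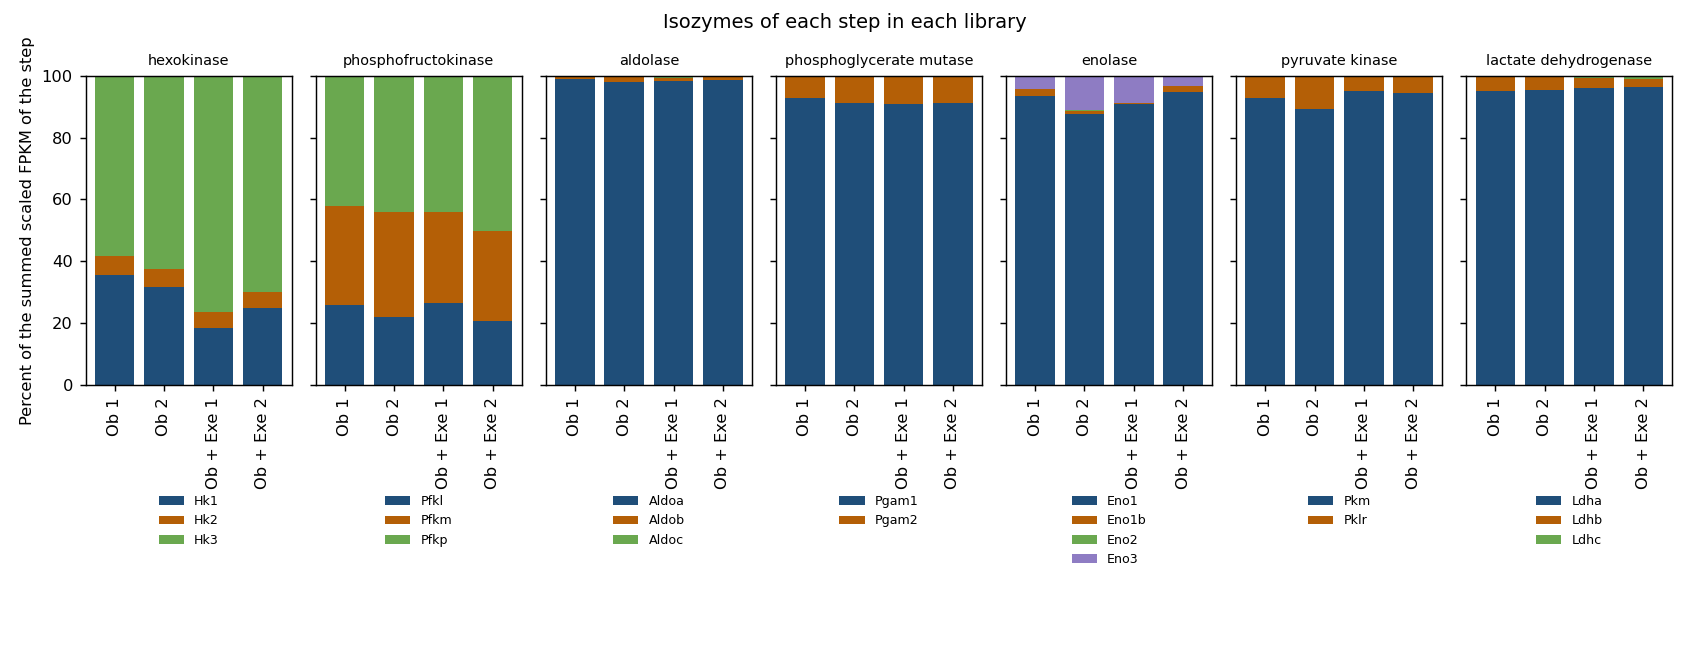
Share of each isozyme in the summed scaled FPKM of its step (vertical, percent) in the 4 libraries, with a panel per step and a colour per gene. A single gene fills nearly all of the aldolase, mutase, enolase, pyruvate kinase and lactate dehydrogenase panels, whereas Hk2 takes 5.28% to 6.17% of the hexokinase panel and Pfkl 20.6% to 26.5% of the phosphofructokinase panel.

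Of the 15 other isozymes tested, 5 did not overlap between the groups, 3 higher and 2 lower in Ob + Exe. This is beside 14.3% and 18.4% of all genes tested. Hk3, Hk1 and Pklr were among them. Hk3 read 60.8 and 53.4 in Ob against 84.2 and 73.1 in Ob + Exe (log2 fold change 0.46, SE 0.20, unadjusted limma p 0.0663). Hk1, the hexokinase of most tissues, read 36.9 and 27.0 in Ob against 20.3 and 25.9 in Ob + Exe (log2 fold change -0.46, SE 0.26). Pklr, which encodes the pyruvate kinase of red cells and liver, read 16.1 and 15.3 in Ob against 9.54 and 11.7 in Ob + Exe (log2 fold change -0.57, SE 0.23, unadjusted limma p 0.0535). In these 3 genes the groups did not overlap, as in 32.6% of all genes tested, and none passed the threshold.

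Ldhb, which encodes the subunit that favours pyruvate, was low and overlapped between the groups, at 9.44 and 7.28 in Ob against 7.68 and 7.21 in Ob + Exe. The ratio of Ldha to Ldhb was 21.1 and 21.6 in Ob against 29.9 and 34.6 in Ob + Exe. This ratio was not tested, and of single genes tested 32.6% did not overlap between the groups. Ldhc, the form known from testis, was the only isozyme past both thresholds of the 15 tested, beside 0.996% of all genes tested for calls in its direction. It read 0.977 and 0 in Ob against 1.90 and 2.54 in Ob + Exe (log2 fold change 2.81, SE 1.13, unadjusted limma p 0.0482, adjusted p 0.960). This change rests on small values, with 91 and 0 read equivalents in Ob against 154 and 190 in Ob + Exe, and moved between 1.09 and 4.52 when a library was left out.

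Many of the enzymes shared a pattern from library to library. Ob replicate 1 was the highest library for 7 of the 10 and Ob replicate 2 the lowest for 8 of the 10. In 9 of the 10, Ob replicate 1 was above Ob replicate 2, against 51% of the genes whose mean FPKM was 1 or more, and the exception was Gapdh. Both patterns together, highest in the former and lowest in the latter, were found in 4.02% of these genes. The summed scaled FPKM of the 10 enzymes was 963 and 688 in Ob against 897 and 947 in Ob + Exe. Ob replicate 2 thus fell below the other 3 libraries, which lay close to each other. Over the 4 libraries, 18 of the 45 pairs of enzymes had a Pearson r above 0.8 and 10 had a negative r, with a median of 0.70, as a description of 4 points that share library and scaling.

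The same library was low in markers of neutrophils. The summed scaled FPKM of 10 markers of maturing neutrophils was 50153 and 28386 in Ob against 36660 and 67471 in Ob + Exe, with 9 of the 10 lowest in Ob replicate 2. The 5 markers of neutrophil progenitors summed to 1249 and 703 in Ob against 1388 and 909 in Ob + Exe, with 4 of 5 lowest in that library. None of these markers was at 0. The 9 erythroid markers, by contrast, summed to 72933 and 72653 in the Ob libraries, and 8 markers of proliferating cells to 1082 and 1098. The neutrophil lists and the enzymes were both lowest in Ob replicate 2. So were the adipocyte, skeletal muscle, and T and natural killer cell lists. The T and natural killer cell markers summed to 17.3 and 10.6 in Ob against 18.3 and 11.9 in Ob + Exe. The other marker lists were lowest elsewhere. Between the Ob + Exe libraries, the maturing neutrophil sum went from 36660 to 67471 and that of the enzymes from 897 to 947. The part of neutrophils or other cells in the enzyme values was not tested.

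**Figure D5:**
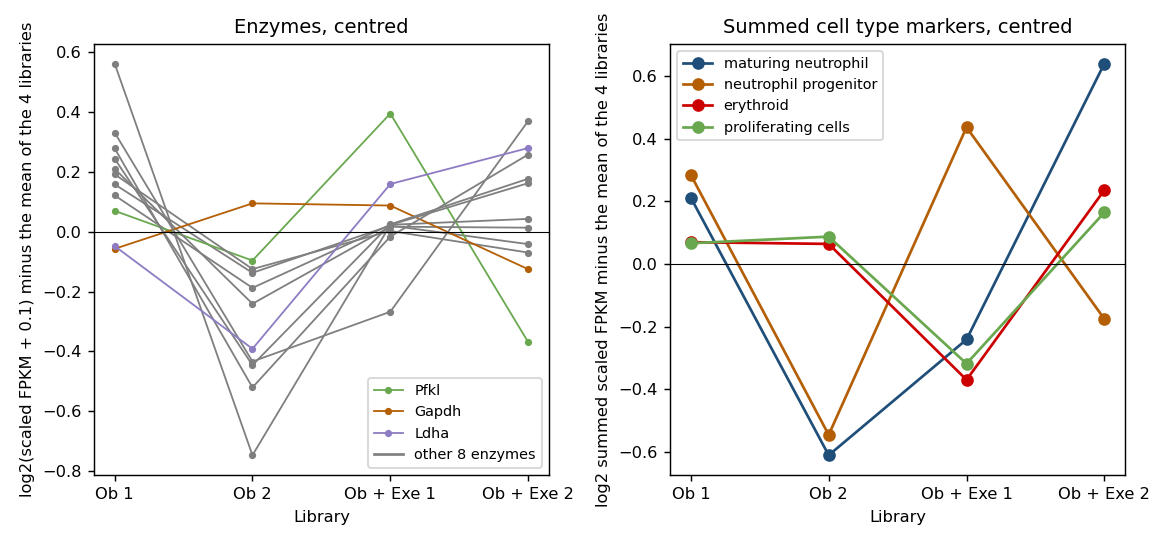
Left, log2(scaled FPKM + 0.1) of the 10 enzymes and Eno1 in each library minus the gene's mean over the 4 libraries. Right, the log2 summed scaled FPKM of 4 marker lists treated in the same way; lines only join the points of a gene or list. Ob replicate 2 is the low point of most enzymes and of both neutrophil lists, while the erythroid and proliferation lists are lowest in Ob + Exe replicate 1.

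By the same measure, the 5 genes most like the mean profile of the enzymes, out of 5615 outside the lists whose mean FPKM was 10 or more, were Erg28, Psmd10, Pphln1, Dpf2 and Pgrmc1, with a Pearson r of 0.992 to 0.997 over 4 libraries. Erg28 read 21.3 and 18.0 in Ob against 20.8 and 20.3 in Ob + Exe. Of the 5615 genes, 45 exceeded 0.95, and 4 points carry little information on likeness.

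Compared per length on the scaled FPKM, the order of the mean levels was Ldha (209), Pkm (179), Aldoa (158), Gpi1 (150), Pgk1 (65.7), Tpi1 (58.5), Pgam1 (30.3), Gapdh (11.0), Pfkl (6.14) and Hk2 (5.76). The ranges over libraries of the top 4 overlapped from each neighbour to the next, as did those of Pgk1 and Tpi1 and those of Pfkl and Hk2. A gap without overlap lay between Gpi1 and Pgk1, between Tpi1 and Pgam1, between Pgam1 and Gapdh, and between Gapdh and Pfkl. Hk2 and Pfkl thus had the lowest RNA of the listed genes, but each is a minor isozyme of its step, and Hk3 at a mean of 67.9 was near Pgk1.

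Glucose and lactate cross the membrane by carriers, and 10 of the 12 carriers and partners on the list passed the filter on low values. None of them was called (0 of 10), and their median log2 fold change was 0.24. Groups without overlap were found for 4 of these 10 genes, 1 higher and 3 lower in Ob + Exe, beside 14.3% and 18.4% of all genes tested. The higher was the widely used glucose carrier Slc2a1, at 2.57 and 1.92 in Ob against 3.97 and 3.97 in Ob + Exe (log2 fold change 0.81, SE 0.34, unadjusted limma p 0.0553). Of the lower ones, the glucose carrier Slc2a8 had the smallest p, at 4.60 and 5.71 in Ob against 2.98 and 3.05 in Ob + Exe (log2 fold change -0.74, SE 0.30, unadjusted limma p 0.0514). Bsg, the chaperone of the lactate carriers, had the highest level, at 258 and 256 in Ob against 227 and 247 in Ob + Exe. Slc2a2 and Slc16a8 were at 0 in all libraries.

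Among 21 tested regulators of glycolysis, 1 was called, against 2.74% of all genes tested for calls in its direction. This was Pdk2, a kinase that holds back pyruvate dehydrogenase, which read 3.99 and 4.38 in Ob against 1.40 and 1.74 in Ob + Exe. Its log2 fold change was -1.36 (SE 0.35), with an unadjusted limma p of 0.00810 and an adjusted p of 0.960. Vhl, which marks the HIF subunits for breakdown, read 11.0 and 9.33 in Ob against 15.2 and 15.2 in Ob + Exe (log2 fold change 0.58, SE 0.23, unadjusted limma p 0.0470, adjusted p 0.960). Txnip, which restrains glucose uptake, was the most abundant regulator, at 130 and 128 in Ob against 118 and 146 in Ob + Exe. Of the 16 other target genes of HIF, 0 were called and the median log2 fold change was 0.10. The most abundant of them, Bnip3l, a receptor for the removal of mitochondria in red cell precursors, read 155 and 152 in Ob against 120 and 219 in Ob + Exe.

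Genes that serve as internal references in PCR were set beside the enzymes. Of 13 such genes, 0 were called, and their median log2 fold change was 0.01 with a range of -0.42 to 0.45. Hprt, a purine salvage enzyme, read 110 and 106 in Ob against 95.9 and 124 in Ob + Exe (log2 fold change 0.01, SE 0.22), beside -0.04 for Gapdh.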

How the data were processed

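RNA-seq libraries of tibial bone marrow were analysed, 2 per group. The authors made poly-A libraries with a kit that does not mark the strand, trimmed the reads with fastp, removed rRNA reads, aligned to GRCm38 with HISAT2, filtered with SAMtools and quantified GENCODE vM25 with StringTie (versions not given in the sources used here). The authors deposited the coverage signal and the FPKM of 142604 transcripts per library, with no read counts, so the study's DESeq2 test could not be repeated.

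FPKM was summed by gene name. The 18582 genes whose mean FPKM was 0.1 or more were scaled by median-of-ratios factors and tested as log2(scaled FPKM + 0.1) with limma 3.58.1 in R 4.3.3 (intensity trend, 2 residual and 3.80 prior degrees of freedom). Fold changes are on this scale, which understates changes of low genes. A gene counted as called when its unadjusted p was under 0.05 with a log2 fold change beyond 1. The test was checked on simulated data. Tables and figures were made with Python 3.11.15, pandas 2.3.3 and matplotlib 3.10.9, and near-identical copies were found with BLAST 2.17.0 in GENCODE vM21 (GRCm38). Promoters came from RefSeq (GRCm38.p6).

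The members and lists were chosen with earlier results of these data known. Named were the 10 enzymes, Eno1, the isozymes, the most abundant gene of each pathway list with up to 5 genes of smallest p under 0.05, and the 5 genes most like the enzymes. Slc2a1, Slc2a8, Fabp4, Adipoq, Cfd, Cidec, Acta1, Hprt and Actb were named after their values were seen. Replicate numbers were in the labels and were not used to pair the libraries in the main fit. Their deviations correlated at -0.107 over all genes tested and at -0.239 over those whose mean FPKM was 1 or more. With 1 difference per group, this cannot settle whether the numbers pair the libraries. The small number of libraries limits the precision. Alternatives were other pseudocounts, filters and scalings, voom on read equivalents, no trend, a replicate block, summing by gene identifier and leaving out each library. The PCR, Western blotting and cell culture experiments were not analysed here.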

Additional observations from a re-analysis of the deposited data

How the results depend on the processing

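No enzyme was called at p under 0.05 with a log2 fold change beyond 1 under any of 17 alternatives, although with a minimum mean FPKM of 10 only 8 of the 10 were tested. Of 168 values of single enzymes under alternatives, 148 kept their direction and their side of the threshold and 20 changed direction. Other filters, no intensity trend and either block leave the log2 fold change of a gene as it is. The direction was therefore fixed in advance under those alternatives, and the count of kept directions overstates how stable they were. Ldha was the only enzyme that kept its direction under every alternative. Its groups did not overlap, so leaving out a library could not reverse its direction. Without scaling, the log2 fold change was -0.021 for Gpi1, -0.059 for Pfkl and -0.057 for Aldoa. As TPM it was -0.029 for Pfkl and -0.025 for Aldoa, with quantile normalization -0.042 for Aldoa, and with voom on read equivalents -0.015 for Aldoa and 0.19 for Gapdh. Leaving out each library in turn gave ranges of -0.17 to 0.13 for Hk2, -0.089 to 0.22 for Gpi1, -0.36 to 0.41 for Pfkl, -0.19 to 0.26 for Aldoa, -0.23 to 0.091 for Tpi1, -0.14 to 0.069 for Gapdh, -0.16 to 0.64 for Pgk1, -0.47 to 0.84 for Pgam1, -0.14 to 0.55 for Pkm and 0.27 to 0.61 for Ldha. The median of the enzymes ranged from -0.15 to 0.24, and 0 to 1 enzymes had a p under 0.05 (Pgam1 without Ob replicate 1, with the lone library of an arm assumed to vary like the other group). The causes were not tested.

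Over all genes, 695 were called. The count was 220 with a pseudocount of 1, 269 with a minimum mean FPKM of 1, 50 with a minimum of 10, 455 with voom and 1056 with no intensity trend, and 742 to 1918 when a library was left out, 1258 without Ob + Exe replicate 1 and 1918 without Ob + Exe replicate 2. At p under 0.05 alone, 938 became 517 and 209 with the minimum of 1 and 10, where fewer genes were tested, 1500 with no filter, and 832 to 2420 when a library was left out. No gene had an adjusted p under 0.05 in limma except with a block. Under the replicate block 739 genes were called, 16 had an adjusted p under 0.05 and no enzyme had a p under 0.05. The crossed pairing, added after seeing the data, gave 794 calls, 1510 genes and 1 enzyme (Ldha) at p under 0.05, and 10 genes with an adjusted p under 0.05. With 2 libraries per group, the intervals of the enzymes also hold changes in either direction, and the sharing of reads between Gapdh and its copies was not tested.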

Other observations

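The routes that lead away from glycolysis were also measured. In the pentose phosphate pathway, which makes NADPH from glucose 6-phosphate, 0 of 8 genes were called, and the median log2 fold change was 0.24. Its most abundant gene, Taldo1 (transaldolase), had a scaled FPKM of 378 and 358 in Ob against 445 and 434 in Ob + Exe (log2 fold change 0.26, SE 0.21). Of the genes of gluconeogenesis and glycogen, 0 of 12 tested were called. Pygl, which releases glucose from glycogen, read 121 and 83.1 in Ob against 102 and 142 in Ob + Exe, while G6pc, Fbp2 and Gys2 were at 0 in all libraries. Of 8 tested genes at branch points, 0 were called. Bpgm, which makes the 2,3-bisphosphoglycerate of red cells, read 278 and 274 in Ob against 241 and 268 in Ob + Exe (log2 fold change -0.12, SE 0.21).

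Pyruvate entry and the citric acid cycle had 0 of 23 genes called and a median log2 fold change of -0.02. Dlst, a subunit of the oxoglutarate dehydrogenase complex, read 75.6 and 91.4 in Ob against 96.8 and 74.4 in Ob + Exe. Of 70 tested subunits of the respiratory chain and ATP synthase, 7 had an unadjusted p under 0.05 with a lower level in Ob + Exe and 0 with a higher one, beside 3.48% and 1.57% of all genes tested, and the median log2 fold change was -0.11. Uqcrq, a small subunit of complex III, read 65.4 and 97.8 in Ob against 26.8 and 35.6 in Ob + Exe (log2 fold change -1.37, SE 0.28, unadjusted limma p 0.00307, adjusted p 0.960). Its read equivalents differed less, at 3690 and 3641 in Ob against 2186 and 2496 in Ob + Exe, and the cause was not tested. Cox6b1, Ndufb7, Atp5o and Ndufa11 had log2 fold changes of -0.55 to -0.59. Atp5k, the other subunit past both thresholds, is named after its values were seen, with a log2 fold change of -1.57 (SE 0.59). These 2 of 70 subunits called lower are near the 2.74% of all genes tested that were called in that direction. Cox4i1, the most abundant subunit, read 277 and 298 in Ob against 306 and 249 in Ob + Exe. The enzymes of glycolysis and these subunits come from the same 4 libraries, and the difference between the lists was not tested.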
